A study of Mus musculus with 64 samples.

Results

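Clone V is one of 7 clonal lines of mouse pancreatic tumor cells, and its 4 mono-culture libraries, chosen by the clone and culture named in their labels, were compared with the 24 mono-culture libraries of clones E, H, K, M, N and T. The series holds 64 RNA sequencing libraries. The clones came from KPC mice, which carry Trp53+/R172H and express Cre from the Pdx1 promoter in pancreatic cells, so every clone compared here shares this background, and the labels give the strain background as C57BL/6 mixed. Each clone is a single line with 4 mono-culture libraries and 4 libraries of tumor cells sorted by GFP after 48 h with fibroblasts, and the 4 coculture libraries of clone V are used below only to see which differences were still present there. The 8 libraries of the KPC1 line were left out. The study places clone V in its group 1 with clones E and H, and clones K, M, N and T in group 2. The labels do not say whether the 4 libraries of a clone came from separate cultures, so every p value below measures the spread between libraries of one line, and with 1 line per clone nothing here extends to other tumors.

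Clonal lines from a tumor share its founding mutations but can differ in which genes are switched on or silenced, and such states are passed on through cell division. Silencing often involves methylation of CG-rich promoters, and loss or gain of chromosome segments shifts the level of many neighboring genes together. Imprinted genes are a special case, because only the copy from one parent is normally used.

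The clone V libraries held between 14424227 and 19486215 counts, within the 11661214 to 21333683 of the other 24. Pairs of clone V libraries correlated with r between 0.984 and 0.989 and differed by 8.76 to 20.8 units of chi-square per gene, more than counting noise, so none was a copy of another. Keratin 8 (862 CPM in clone V, where CPM is a gene's count scaled to a common library total) and keratin 18 (1070 CPM), which mark ductal epithelium, were abundant. Epcam, a defining epithelial surface marker, was nearly absent at 0.129 CPM, as it was in every other clone (at most 0.372 CPM). Of markers of other cell types, Cd3e and C1qa (leukocytes), Lum, Fap, Thy1 and Dpt (fibroblasts) and Cdh5 and Emcn (endothelium) had 0 counts in clone V. Pdgfra (13.9 CPM, with 0.471 to 31.6 in the other clones) and Pdgfrb (9.66 CPM, with 4.21 to 86.5), receptors that fibroblasts also carry, were expressed. Csf1r had 7 counts and Vwf 52 counts, and the endothelial genes Kdr and Pecam1 are described below. The running numbers in the sample names go from 1 to 64. They were treated here as a lower series (1 to 43) and a higher series (44 to 64), although the names mark no break there. All clone V libraries are in the lower series and all clone K libraries in the higher one.

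The first question was which genes were switched on or off in clone V alone. A gene was called on at 1 CPM or more in each of the 4 libraries of a clone and off at a mean under 0.1 CPM. By this rule 14 genes were on only in clone V (0.0586% of the 23891 genes with any count) and 5 were off only in clone V (0.0209%). The corresponding counts were 0 to 5 on and 0 to 5 off in the other 6 clones. With stricter limits (2 and 0.05 CPM) there were 5 on and 0 off genes, and with looser limits (0.5 and 0.2 CPM) 33 and 9. In the RPKM table there were 13 on genes, 7 of them shared, and 1 off gene. The 4 promoters printed here belong to genes that differed widely between clone V and the rest and are described first below, Peg3 and Cxcr4 at the high end and the neighbors Cd81 and Tssc4 at the low end. Each runs 5′ to 3′ on the gene's strand from 250 bases before to 50 bases after the RefSeq start on GRCm38.p6, with every CG dinucleotide in capitals.

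Peg3, chr7:6730370-6730669, minus strand: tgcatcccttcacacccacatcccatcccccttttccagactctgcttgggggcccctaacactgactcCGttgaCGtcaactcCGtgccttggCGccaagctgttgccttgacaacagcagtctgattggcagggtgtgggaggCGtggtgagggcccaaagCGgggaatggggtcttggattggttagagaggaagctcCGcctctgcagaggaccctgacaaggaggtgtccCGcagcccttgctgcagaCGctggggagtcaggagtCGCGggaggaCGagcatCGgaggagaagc

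Cxcr4, chr1:128592250-128592549, minus strand: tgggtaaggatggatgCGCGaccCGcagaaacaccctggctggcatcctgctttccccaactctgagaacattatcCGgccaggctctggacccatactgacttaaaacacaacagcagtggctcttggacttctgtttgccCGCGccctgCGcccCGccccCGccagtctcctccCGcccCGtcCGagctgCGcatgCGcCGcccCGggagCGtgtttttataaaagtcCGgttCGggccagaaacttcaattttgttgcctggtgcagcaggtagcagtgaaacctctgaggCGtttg

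Cd81, chr7:143052500-143052799, plus strand: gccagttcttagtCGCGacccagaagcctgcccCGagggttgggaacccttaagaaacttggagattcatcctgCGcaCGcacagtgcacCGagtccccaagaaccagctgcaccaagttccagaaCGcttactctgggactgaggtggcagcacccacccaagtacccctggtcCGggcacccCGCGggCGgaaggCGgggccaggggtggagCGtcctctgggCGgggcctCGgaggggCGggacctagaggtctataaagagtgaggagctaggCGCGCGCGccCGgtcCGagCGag

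Tssc4, chr7:143069118-143069417, plus strand: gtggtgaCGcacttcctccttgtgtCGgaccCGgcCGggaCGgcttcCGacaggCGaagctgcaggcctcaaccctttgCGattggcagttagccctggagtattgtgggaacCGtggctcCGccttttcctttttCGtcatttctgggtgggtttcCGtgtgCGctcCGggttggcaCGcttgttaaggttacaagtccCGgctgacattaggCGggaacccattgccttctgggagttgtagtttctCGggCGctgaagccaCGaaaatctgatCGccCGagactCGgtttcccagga

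CG pairs numbered 13 in the Peg3 window, 20 in that of Cxcr4, and 23 each in those of Cd81 and Tssc4, against a median of 7 over 32851 RefSeq promoters of the same length. Such counts are common. At least as many CG pairs were present in 37.9% of all promoters for Peg3, 26.5% for Cxcr4 and 21.5% for Cd81 and Tssc4. The letters GGGCGG, read on both strands, occurred 3 times in the Cxcr4 window and 3 times in the Cd81 window, and not in the other two. They were present in 35.7% of all promoters. TATAAA, also read on both strands, occurred 2 times in the Cxcr4 window and 1 time in that of Cd81, and in 13.6% of all promoters. The 2 matches in the Cxcr4 window overlap, on opposite strands of the same stretch. Of the 19 genes on or off only in clone V, 13 had a promoter in the RefSeq table, with 2 (Cdh10) to 30 (Epha5) CG pairs. Methylation was not measured in these libraries.

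Peg3, an imprinted gene for a zinc finger protein, was the gene that set clone V most widely apart. It stood at 508, 583, 521 and 630 CPM in the 4 clone V libraries (561 ± 56.5, SD, n = 4). The means of the other clones lay between 0 CPM in clone K and 0.441 CPM in clone E, so the libraries of clone V and the rest were far from overlapping. Peg3 was 10.20 higher on the log2 scale in clone V than in the nearest clone, E (adjusted p = 6.76e-15, edgeR's quasi-likelihood test for the highest clone, explained below). Peg3 was not among the 14 genes because clones E, H and N exceeded 0.1 CPM. Usp29, an imprinted gene that starts within the Peg3 promoter window on the opposite strand, had 0.274, 1.13, 1.39 and 0.714 CPM in clone V, from 59 counts, and 0 counts in the other 24 libraries. Against a floor of 3 counts over the 4 libraries of a clone this is at least 15.6-fold higher. Zim1, the imprinted gene on the other side of Peg3, had 0 counts in all 7 clones.

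Among the 14 genes on only in clone V, several encode receptors and signaling proteins. Cxcr4, the receptor for the chemokine Cxcl12, measured 14.1, 11.9, 15.7 and 13.4 CPM (13.8 ± 1.61, SD, n = 4), against 0 to 4 counts per clone elsewhere. Its ligand Cxcl12 was present in clone V at 103 CPM and ranged from 0 to 880 CPM over the others, and V was not its highest clone. Chrna1, a subunit of the muscle acetylcholine receptor, measured 7.41, 4.70, 5.42 and 5.38 CPM, with 2 counts in clone H and 0 in the other 5 clones. Epha5, an ephrin receptor, averaged 1.61 CPM (SD 0.330, n = 4) and had 4 counts in clone M only. Gng11, a G protein subunit, and Mapk4, an atypical MAP kinase, had 0 counts in all other clones and were at least 26.8-fold and 40.8-fold higher in clone V than the floor. The rule for on genes fixes in advance that no clone V library overlaps with the others for the on genes.

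The other members of the 14 have varied roles. Rbms3, an RNA-binding protein gene, measured 31.7, 30.7, 24.6 and 32.8 CPM (29.9 ± 3.64, SD, n = 4), from 1958 counts in clone V against 0 to 2 counts in each other clone. Nova1, which regulates splicing in neurons, averaged 3.40 CPM (SD 0.449, n = 4) against at most 6 counts per clone. Lrrn1, a leucine-rich repeat membrane protein gene, measured 16.7, 19.6, 17.8 and 19.1 CPM and had 5 counts in clone H alone. Myo5b, a motor that carries recycling vesicles in epithelial cells, measured 18.3, 11.2, 14.6 and 11.2 CPM against 0 to 2 counts. Cdh10, a cadherin, averaged 3.53 CPM (SD 0.542, n = 4) with 1 count elsewhere. Rnf144a, a ubiquitin ligase gene, averaged 3.24 CPM and had 0 counts in the other 24 libraries, at least 57.6-fold higher than the floor. Entpd2, an ectonucleotidase, averaged 2.79 CPM, Tnnt3, a fast muscle troponin, 2.02 CPM, and Kif26a, a kinesin-like protein, 1.67 CPM, each with 0 to 4 counts per clone elsewhere. All 14 passed the test for the highest clone, which adds no support because the rule chose them on the same libraries. Adjusted p (edgeR) lay between 2.71e-13 for Rbms3 and 0.000372 for Mapk4, which DESeq2 did not call (adjusted p = 1.0). The count of on genes was 24 when clone H was left out of the comparison, against 14 with it.

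The 5 genes off only in clone V included a neighboring pair on chromosome 7. Tssc4 had 0.206, 0.0511, 0 and 0 CPM, 4 counts in all, while the other clones had means of 10.7 to 19.1 CPM. R74862, a noncoding gene, had 0 counts in clone V against 1.75 to 3.55 CPM, at least 38.2-fold lower. Between them lies Cd81, a tetraspanin that organizes membrane receptors, which missed the limit for off but was far below every other clone. Cd81 measured 0.823, 1.07, 0.630 and 1.17 CPM in clone V (0.924 ± 0.244, SD, n = 4) and 142 to 252 CPM in the other 6 clones. This was 7.24 lower on the log2 scale than the nearest clone, M (adjusted p = 2.81e-21, edgeR). Positions from GENCODE on GRCm38 put R74862 at chr7:143021784-143053686 (minus strand), Cd81 at chr7:143052739-143067934 (plus strand) and Tssc4 at chr7:143069249-143071093 (plus strand). R74862 overlaps the start of Cd81 on the opposite strand, and as the sources do not state whether counting used strand, reads in that overlap cannot be assigned. The next tested genes downstream were not low in clone V. Genes between these and Tssc4 did not pass the filter on low counts, so their levels in clone V were not tested. Slc22a18 had 1 count in clone V against 0.032 to 1.08 CPM, and Trpm5 0 counts against 0.0185 to 0.185 CPM. Others there, such as KCNQ1OT1_5, were not below every other clone. Nap1l4 had 85.3 CPM (52.1 to 87.6 in the others) and Cars 97.2 CPM (49.4 to 198). In coculture Tssc4 was at 1.06 CPM in clone V against 11.9 to 20.7 CPM.

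The remaining off genes lie on other chromosomes. Angpt1, a ligand of the endothelial receptor Tek, had 0.137, 0.0511, 0 and 0.0649 CPM in clone V and 2.33 to 47.7 CPM elsewhere. Hcn2, a pacemaker channel, had 0, 0.0511, 0 and 0.195 CPM against 2.79 to 9.63 CPM. Slc22a21, a carnitine transporter, had 0.206, 0.102, 0 and 0 CPM against 1.41 to 3.35 CPM. No library of clone V overlapped with those of another clone for these genes, which the rule for off genes fixes in advance. These genes passed the test for the lowest clone with adjusted p (edgeR) of 0.000334 for Angpt1, 3.23e-09 for Hcn2 and 3.81e-08 for Slc22a21. The rule chose them on the same libraries, so passing adds no support. Angpt1 was not called by limma on log2(RPKM + 1) (adjusted p = 0.572). Left without clone H, the comparison gave 15 off genes.

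**Figure D1:**
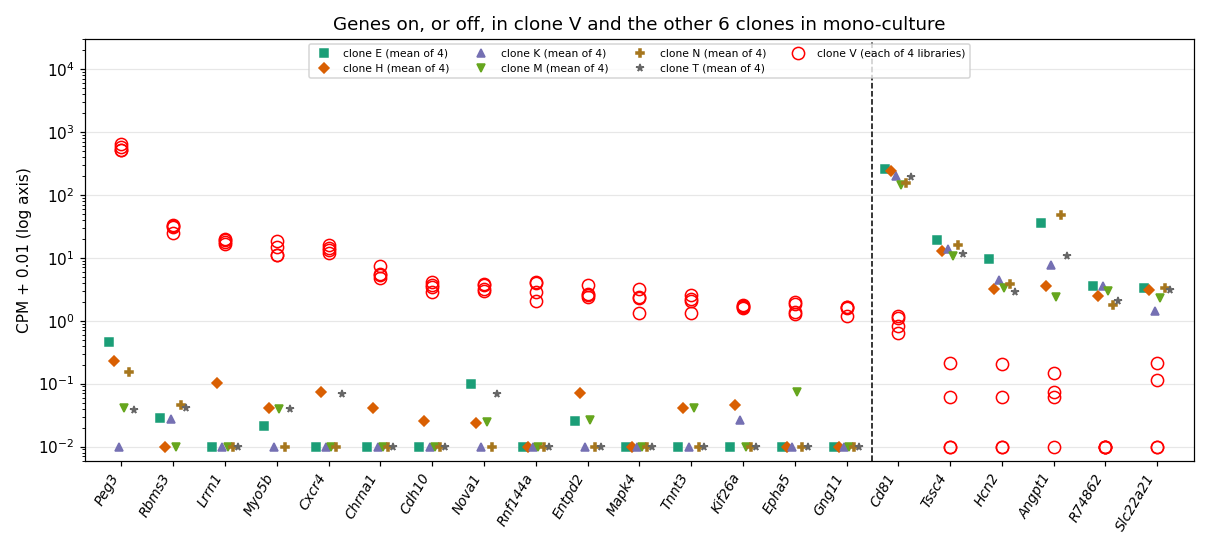
CPM plus 0.01, on a log axis, of Peg3 and the 14 genes on only in clone V (left) and of Cd81 and the 5 genes off only in clone V (right). Open circles are the 4 clone V libraries and the other points are the means of clones E, H, K, M, N and T over 4 libraries. In every gene the clone V circles stand clear of the other points, which the rule fixes for all but Peg3 and Cd81.

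The second question was how far clone V stood from the other clones across all expressed genes. Of 13509 genes tested, 8787 (65.0%) differed between clone V and the equally weighted mean of the other 6 clones at an adjusted p under 0.1 (edgeR's quasi-likelihood test with Benjamini-Hochberg adjustment), 4697 higher (34.8%) and 4090 lower (30.3%). With the 4 libraries of each clone summed to 1 value, so that clone V was 1 sum against 6, the same test called 23 genes, 18 higher and 5 lower, among them Peg3, Cd81, Tssc4, Rbms3, Myo5b, Cdh10 and Chrna1, and 908 had an unadjusted p under 0.05. A stricter question is whether clone V was beyond every other clone. A gene was called highest or lowest when clone V differed from each of the other 6 in the same direction, taking the largest of the 6 one-sided p values. By this rule 483 genes were highest in clone V (3.58%) and 421 lowest (3.12%). Without the libraries numbered 1, 2 or 3 of all clones the highest genes numbered 316, 285 and 316, and without clone K they were 780 and the lowest genes 728. The other clones had 82 (T) to 809 (K) highest genes and 44 (T) to 847 (K) lowest genes. With a margin of at least 1 on the log2 scale to the nearest clone, clone V had 202 highest genes (1.50%), more than any other clone (32 to 141), and 123 lowest genes (0.911%), within the range of the others (25 to 269). These counts were not tested against each other. In 438 of the 483 highest genes and 360 of the 421 lowest genes all 4 clone V libraries lay beyond all 24 others, as they did for 568 and 466 of all tested genes.

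By the naming rule, 5 more of the highest genes are given here, and Col4a6 is given with the collagens below. Lepr, the leptin receptor, measured 59, 62.8, 42.2 and 49.3 CPM in clone V (53.3 ± 9.34, SD, n = 4) against 0 to 0.668 CPM, 6.36 above clone H on the log2 scale (adjusted p = 4.01e-13, edgeR). Trps1, a GATA-type repressor, measured 41.7, 39.6, 52.7 and 50.3 CPM against at most 1.10 CPM. Robo1, a receptor for Slit guidance ligands, measured 7.89, 8.33, 7.37 and 7.59 CPM against at most 0.310 CPM. Mal2, a protein of transcytosis in epithelial cells, averaged 21.4 CPM (SD 5.49, n = 4) against at most 0.872 CPM. Ikzf2, a zinc finger factor known from regulatory T cells, averaged 7.22 CPM (SD 0.763, n = 4) against at most 0.298 CPM. The margins of Trps1, Robo1, Mal2 and Ikzf2 were 5.39, 4.63, 4.62 and 4.57 on the log2 scale, with no overlap between libraries. With the lower or higher number series as a term, Peg3 (adjusted p = 0.235), Lrrn1, Rnf144a and Mapk4 (each 1.0) were no longer called highest by edgeR. The same held for 5 genes of the lists below, Prox1 (1.0), Lef1 (1.0), Nfe2l2 (0.595), Krt7 (0.425) and Itga11 (0.13). All of them were still called within the lower series alone, which holds no clone K library.

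Among the lowest genes with the largest margins, Scara3, a scavenger receptor-like gene, measured 0.549, 0.716, 0.252 and 0.324 CPM in clone V against 20.2 to 52.9 CPM. It was 5.40 lower than the nearest clone, E, on the log2 scale (adjusted p = 1.22e-11, edgeR). Cdx2, a factor of intestinal identity, measured 0.343, 0.256, 0.567 and 0.324 CPM against 6.23 CPM in clone H and 97.1 to 216 CPM in the other 5 clones. Parp12, an interferon-inducible ADP-ribosyltransferase, measured 1.10, 2.10, 1.07 and 1.82 CPM against 17.6 to 23.3 CPM. Grb10, an imprinted adapter that dampens insulin and growth factor receptors, measured 8.64, 7.98, 11.5 and 8.5 CPM against 75.4 to 229 CPM, 3.05 below clone E (adjusted p = 2.47e-11, edgeR). None of these overlapped between clone V and the rest. Syt7, a calcium sensor of exocytosis (0.453 CPM against 5.35 to 65.0), Npy4r, a peptide receptor (1.28 against 7.47 to 56.2), Bmp2, a bone morphogenetic protein (1.84 against 10.3 to 82.1), Kcnf1, a potassium channel subunit (1.95 against 9.30 to 65.4), Emb, a membrane glycoprotein (2.09 against 8.72 to 51.9), and Anxa8, an annexin (81.2 against 320 to 808), completed the 12 protein-coding genes with the largest margins among those at 5 CPM or more in the nearest clone, which were between -1.98 and -7.28.

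Clone H was the clone most like clone V. The mean log2 CPM of the 2 clones correlated across genes with r = 0.949, against 0.869 to 0.895 for the other 5, and 6488 genes (48.0%) differed between V and H against 8695 to 9250 for the others. Genes are not independent replicates, so r is a description. The clone nearest to clone V was H for 204 of its 483 highest and 175 of its 421 lowest genes. Genes on in V and H and off in the other 5 clones numbered 5, including Prokr2, Ror1, Pgbd5 and Bcl11b, as did genes off only in those 2 (Sgk3, Reps2, Cyp3a13, Pde9a and Lims2). With clone E, the third clone of group 1, clone V shared 1 such on gene (Tspan6) and 1 off gene (Gm14403), and with K, M, N and T none. Left without clone H, the comparison gave 1069 highest and 1023 lowest genes.

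The chromosomal neighborhood of these genes was then examined. The strongest run of raised neighbors was on chromosome 6, where a window of 20 consecutive tested genes from Gng11 to Mios (chr6:4003904-8236274) had a median difference of 1.45 on the log2 scale in clone V against -0.772 to 0.214 in the other clones. All 20 lay above the mean of the others, 18 were called higher (background 34.8%) and 8 were highest in clone V (background 3.58%). The window was picked for its median, so these counts are a description. Ppp1r9a, a scaffold of actin and protein phosphatase, measured 38.3, 34.7, 40.1 and 49.1 CPM in clone V against at most 4.85 CPM, in clone H. Col28a1, a collagen, measured 27.4, 34.7, 19.8 and 27.5 CPM against at most 3.67 CPM. Peg10, an imprinted gene derived from a retrotransposon, measured 28.7, 29.5, 30.04 and 40.7 CPM against 0.104 to 12.6 CPM. Its imprinted neighbor Sgce, at 30.3 CPM, was exceeded by clone M (36.5 CPM). Mios, a regulator of amino acid signaling to mTORC1, measured 63.2, 69.5, 55.8 and 74.2 CPM against 22.5 to 28.1 CPM. Casd1, Col1a2, C1galt1 and Gng11 were the other highest genes. Asns, the asparagine synthetase gene that the study centers on, lies in the same window. Its RNA did not pass the test against the mean of the other clones, as described below. Windows of this size reached 1.75 (clone K) and -2.05 (clone M) in other clones, so a median of this size was not particular to clone V. Copy number was not measured.

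**Figure D2:**
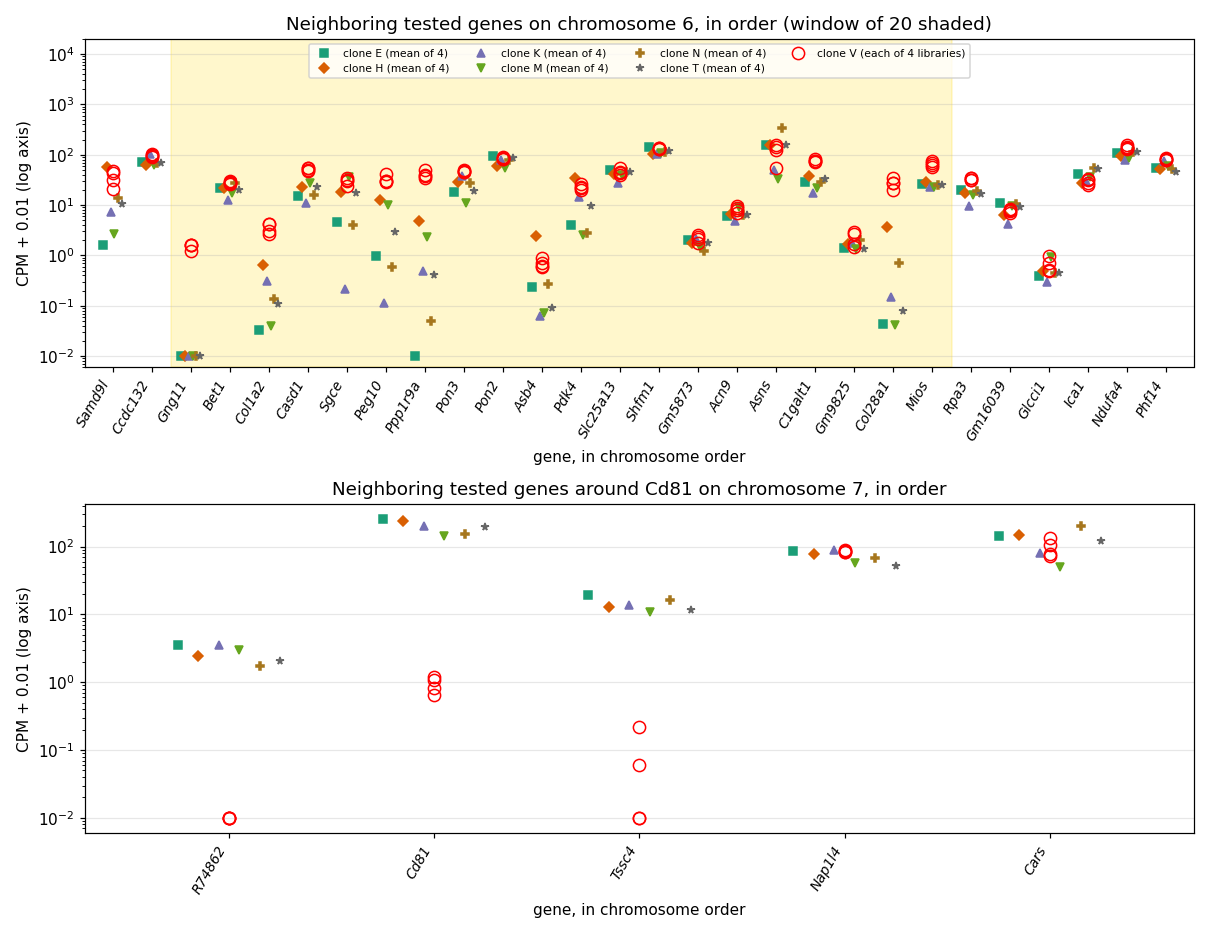
CPM plus 0.01, on a log axis, of tested genes in chromosomal order around the shaded window of 20 genes on chromosome 6 (top) and around Cd81 on chromosome 7 (bottom), with open circles for the 4 clone V libraries and other symbols for the means of the other clones. On chromosome 6 Gng11, Peg10, Ppp1r9a, Col28a1 and Mios stand above all other clones, and on chromosome 7 clone V is below the other clones for R74862, Cd81 and Tssc4 and among them for Nap1l4 and Cars.

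Whole chromosomes also differed slightly and with little spread between libraries. On chromosome 10 the median difference was -0.322 (SD 0.0154, n = 4), against -0.0541 to 0.393 in the other clones, and 79 of its 635 genes (12.4%) were lowest in clone V against 3.12% of all genes. Chromosome 6 had a median of 0.182 (SD 0.00751, n = 4) against at most 0.111, and 53 of its 647 genes (8.19%) were highest in clone V. On chromosomes 12, 18 and 19 clone V had medians of 0.313, 0.346 and -0.305, and clone H had nearly the same (0.332, 0.375 and -0.296). On chromosome 16 the median of clone V was -0.279 and that of clone E -0.276. On chromosome 13 clone V, at 0.347, was near clones K and M (0.388 and 0.376), with clone N at -0.710. The same measure over all tested genes was 0.0258 in clone V (SD 0.006, n = 4).

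**Figure D3:**
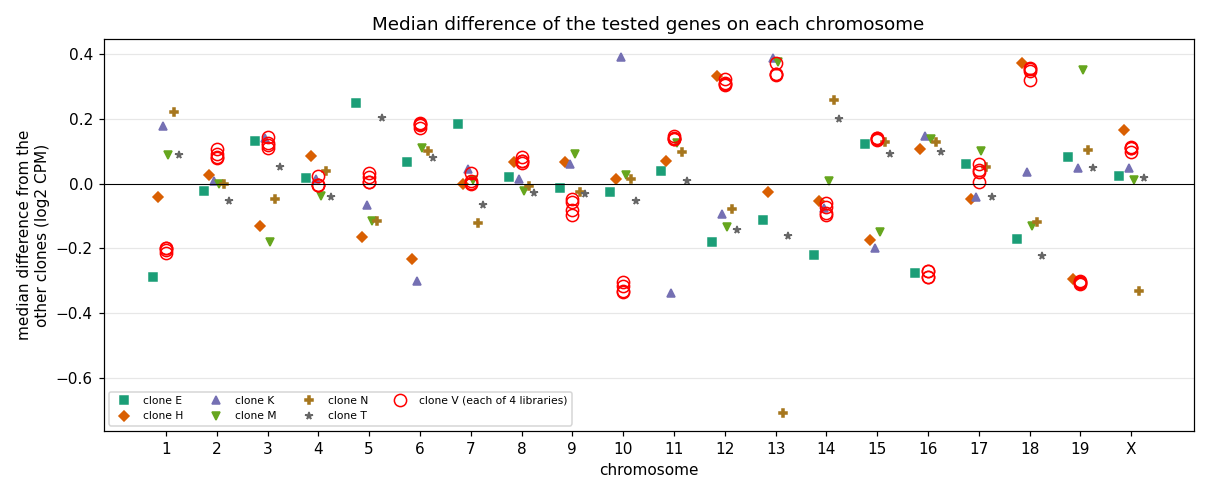
Median difference of the tested genes from the mean of the other clones (log2 CPM), by chromosome, with open circles for the 4 clone V libraries and 1 symbol for each other clone. Clone V lies below every other clone on chromosome 10 (-0.322) and above every other clone on chromosome 6 (0.182), and lies beside clone H on chromosomes 12, 18 and 19.

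Gene lists written for this tissue were described next by how many members passed the test against the mean of the other clones, beside 34.8% higher and 30.3% lower over all tested genes. Wnt signaling, in which secreted Wnt ligands act through Frizzled receptors and beta-catenin and which Lgr receptors and R-spondins amplify, came first. Of 30 Wnt pathway genes tested, 23 were higher and 4 lower in clone V, 3 did not pass, and 6 were highest and 1 lowest in clone V. Their median difference from the mean of the other clones, on mean log2 CPM, was 1.57, and the same median was between -1.77 and 0.541 in the other 6 clones, each taken against the rest. Single clone V libraries gave 1.42 to 1.86. Wnt5a, a ligand, measured 65.8, 69.0, 68.6 and 79.7 CPM in clone V, 29.1 CPM in clone H and at most 7.37 CPM in the other clones (adjusted p for highest = 0.000605, edgeR). Of the receptors, Fzd4 averaged 19.6 CPM against 0.620 to 9.17 CPM, and Fzd8 19.9 CPM against 0.965 to 11.4 CPM. Axin2, a target and feedback inhibitor of the pathway, measured 15.1, 17.1, 11.3 and 20.8 CPM against at most 3.08 CPM, 2.39 above the nearest clone (adjusted p = 2.90e-06, edgeR). Lgr5, also a target, measured 60.2, 118, 60.8 and 132 CPM against 38.5 CPM in clone H and at most 5.69 CPM elsewhere. Lgr4 went the other way, at 3.86 CPM against 10.4 to 81.0 CPM, and was the lowest member (adjusted p = 0.0111, edgeR). The calls of Lgr5 and of Lef1, a nuclear partner of beta-catenin (12.9 CPM against at most 6.64), were lost when single clone V libraries were left out, at adjusted p (edgeR) of 0.142 without library 2 and 0.145 without library 4 for Lgr5, and of 0.262, 0.145 and 0.467 without libraries 1, 2 and 3 for Lef1.

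Matrix genes followed. Of 22 collagen genes tested, 17 were higher and 3 lower in clone V, with a median difference of 1.82, and clone H had 1.90 on the same scale. Col4a6, a basement membrane collagen, measured 25.3, 24.6, 25.6 and 25.6 CPM in clone V against 0 to 1.05 CPM, 4.57 above clone T (adjusted p = 1.34e-11, edgeR). Col4a1 (625 CPM against 205 to 482), Col5a1 (267 against 104 to 182), Col5a3 (5.59 against 0.0186 to 1.68) and Col1a2 (3.52 against 0.0231 to 0.630) were also highest in clone V. Dcn and Postn, fibroblast genes, had 2 counts each in clone V mono-culture, and of 10 fibroblast markers tested 4 were higher and 4 lower. Of 30 matrix proteases and inhibitors, 16 were higher and 7 lower (median 1.29, with 1.16 in clone H). Only Mmp28, an epithelial metalloprotease, was beyond all clones, lowest at 6.63 CPM against 16.6 to 40.4 CPM (adjusted p = 0.025, edgeR). Of 24 integrins and laminins, 13 were higher and 5 lower. Itga7, a laminin receptor, measured 50.1, 35, 43.5 and 31.8 CPM against 18 CPM in clone H and at most 3.94 CPM elsewhere, and Itga11, a collagen receptor, averaged 1.75 CPM against at most 0.407 CPM. The call of Mmp28 was lost when the libraries numbered 1 or those numbered 2 were left out (adjusted p = 0.122 in both cases).

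Epithelial genes are described before mesenchymal ones. Cdh1, the E-cadherin of epithelial junctions, was highest in clone V at 300, 333, 294 and 294 CPM (305 ± 18.8, SD, n = 4) against 1.00 to 140 CPM, 1.12 above clone E (adjusted p = 1.54e-08, edgeR). Krt7 (11.4 CPM against 0.853 to 4.88) and Pkp3, a desmosomal protein (3.58 against 0.273 to 1.64), were also called highest. Krt7 lost the call without clone V library 2 (adjusted p = 0.166, edgeR) or 4 (0.115), and Pkp3 without library 1 (0.189). In all, 3 of 14 epithelial genes were higher and 7 lower in clone V. Krt19 was among the lower ones at 186 CPM, with 171 to 920 CPM elsewhere. Of 25 mesenchymal genes, which mark epithelial-mesenchymal transition, 15 were higher and 4 lower (median 0.679, against -0.495 to 0.694 in the others). Loxl2, a matrix cross-linking enzyme, measured 77.7, 84.1, 64.6 and 88.5 CPM against 7.67 to 16.8 CPM (2.23 above clone M, adjusted p = 4.37e-09, edgeR). Tnc, a matrix glycoprotein, averaged 41.1 CPM against 2.17 to 18.6 CPM. The factors Snai1 and Twist2, which repress epithelial genes, were lowest in clone V, at 0.446 CPM against 1.62 to 20.7 and at 4.16 CPM against 9.65 to 47.3. Zeb1 and Zeb2, factors of the same kind, were higher by 0.18 and 0.39 on the log2 scale than the mean of the others.

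Among factors of pancreatic lineage, 3 of 13 tested were higher and 7 lower. Gata6 measured 19.2, 25.7, 19.7 and 26.8 CPM in clone V, 9.02 CPM in clone H and at most 3.46 CPM elsewhere (adjusted p for highest = 7.16e-05, edgeR). Prox1, a homeobox factor of early pancreas, measured 0.823, 1.12, 0.630 and 1.95 CPM and had 1 count in the other 24 libraries together. Hnf4a, a gut and pancreas factor, was at 0.0343 CPM in clone V and ranged from 0.396 to 79.7 CPM over the others, and was not called lowest (adjusted p = 0.272, edgeR). Pdx1, whose promoter drives Cre in these mice, measured 57.9 CPM against 51.3 to 200 CPM and was lower by 0.84 than the mean of the others (SE 0.19). Cela1, an elastase gene of acinar cells, was highest in clone V at 16.9 CPM against 1.33 to 4.26 CPM, while 10 of the 15 acinar and endocrine markers, among them Cpa1 and Gcg, had 0 counts.

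All 15 driver and tumor suppressor genes tested passed the test, 11 higher and 4 lower. Trp53 was at 363 CPM in clone V and 260 to 366 CPM in the others, 0.31 above their mean on the log2 scale (SE 0.06), and was not highest in clone V. Tgfbr2, a TGF-beta receptor, was highest at 308, 371, 284 and 392 CPM against 104 to 247 CPM (adjusted p = 0.0163, edgeR). Stk11, a kinase that restrains growth, was called lowest at 102 CPM against 120 to 171 CPM (adjusted p = 0.0774). The call of Tgfbr2 was lost without clone V library 2 (adjusted p = 0.118) and that of Stk11 without library 3 (0.107) or 4 (0.116). Of 20 genes of MAPK output, 9 were higher and 5 lower, and Etv4 had the largest difference at 175 CPM against 38.4 to 150 CPM.

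Growth factors and their receptors were examined next. Of 21 PDGF, FGF, VEGF, HGF and Hedgehog genes tested, 12 were higher and 9 lower. Flt4, a VEGF receptor, measured 22.3, 27.4, 15.2 and 25.5 CPM in clone V against at most 1.73 CPM, in clone M (3.71 above it on the log2 scale, adjusted p = 4.92e-10, edgeR). Kdr, another VEGF receptor, measured 7.61, 10.6, 5.73 and 6.68 CPM against at most 0.742 CPM. The endothelial genes Cdh5 and Emcn were at 0, and Pecam1 was at 1.25 CPM, with 0.0995 to 2.10 CPM in the other clones. Of 10 endothelial markers 4 were tested, 3 higher and 1 lower. Fgf18, a growth factor, averaged 4.63 CPM against at most 0.332 CPM, and Dhh, a Hedgehog ligand, 12.5 CPM against at most 5.46 CPM. In the EGF family 6 of 14 were higher and 4 lower, and Lrig1, which dampens EGF receptors, was highest at 189 CPM against 42.2 to 123 CPM, a call lost without the libraries numbered 2 of all clones (adjusted p = 0.122, edgeR).

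In the TGF-beta and BMP family the lower members outnumbered the higher, 16 against 8 of 29 tested. Bmp2, given above, and Grem1, a secreted BMP antagonist, were both lowest in clone V, Grem1 at 2.95, 2.91, 5.54 and 3.63 CPM against 6.71 CPM in clone H and 48.3 to 448 CPM in the other 5 clones (adjusted p = 0.0542, edgeR). Id1, a target of BMP signaling, was also lowest at 35.7 CPM against 66.5 to 248 CPM, as were Smad6, an inhibitor of BMP signaling (15.8 against 29.9 to 66.2), and Ltbp2 (0.198 against 1.10 to 4.06). Inhbb, a subunit of activin B, measured 81.3, 85.3, 64.7 and 77.6 CPM, 47.9 CPM in clone H and 0 to 3.95 CPM elsewhere. Tgfb3 was highest at 124 CPM against 36.5 to 94.8 CPM. The calls of both Grem1 and Inhbb were lost without clone V libraries 1, 2 or 4, at adjusted p (edgeR) of 0.125, 0.150 and 0.125 for Grem1 and of 0.175, 0.205 and 0.108 for Inhbb.

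Interferon, MHC class I and chemokine genes were examined next. Of 20 interferon-stimulated genes tested, 12 were lower and 2 higher in clone V (median -0.758, against -0.255 to 0.455 in the others). Irf7, an amplifier of the response, was called lowest at 0.236 CPM against 0.679 to 2.10 CPM, and Ifit1 had 0 counts against 0.0905 to 1.53 CPM, and both calls were lost with RPKM values. Irf7 also lost it without clone V library 2 (adjusted p = 0.137, edgeR) or 3 (0.104), and Ifit1 without library 2 (0.117), 3 (0.104) or 4 (0.111). Irf1 was highest at 90.3, 97.7, 85.2 and 100 CPM against 38.8 to 62.2 CPM (adjusted p = 0.0005, edgeR). Of 13 MHC class I genes, 7 were lower and 2 higher. H2-T23, a nonclassical class I gene, was lowest at 11.9, 9.77, 9.95 and 10.8 CPM against 26.4 to 72.2 CPM (adjusted p = 2.51e-06, edgeR), whereas for H2-K1, at 11.8 CPM, clone K was lower still (6.48 CPM). Class I genes are near-identical in parts, and how shared reads were counted is not stated. Of 21 chemokines and cytokines, 8 were higher and 9 lower, a split that turned to 11 and 8 of 29 without the filter on low counts and to 9 and 8 without clone V library 4 or without clone E, with Cxcl16 lowest at 4.58 CPM against 10.9 to 45.8 CPM.

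**Figure D4:**
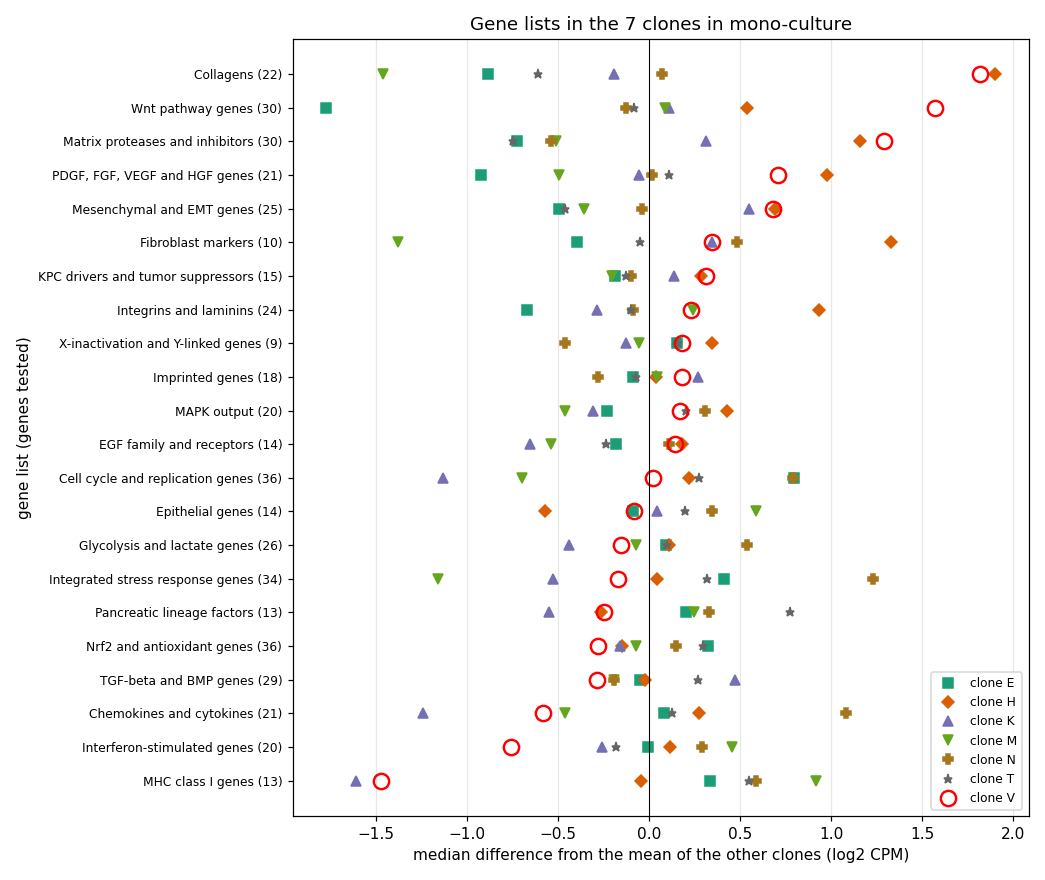
Median difference (log2 CPM) of the tested members of each gene list with at least 9 genes, for each of the 7 clones against the mean of the others. Clone V had the highest median for Wnt pathway genes (1.57) and the lowest for interferon-stimulated genes (-0.758). It lay near clone H for matrix proteases (1.29 and 1.16) and collagens (1.82 and 1.90).

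The integrated stress response, in which Atf4 raises amino acid synthesis and transport genes, is the program the study examines most closely. By immunoblot, the study reports more protein of this response and of Myc in clones V, E and H than in the rest. Here RNA of clone V was set against a mean that includes clones E and H, so that protein difference was not tested. Of 34 genes tested, 2 were higher, 11 lower and 21 did not pass. The split depended on single clones of the comparison. Without clone N, 6 were higher and 8 lower, and without clone M, 1 was higher and 18 lower. Asns measured 143, 122, 155 and 55.3 CPM in clone V, so the fourth library was well under the other 3, and the other clones lay between 32.3 CPM (M) and 333 CPM (N). Its difference from their mean was 0.08 (SE 0.26, adjusted p = 0.823, edgeR), and it changed sign under several alternatives. Atf4 (394 CPM, difference -0.16, SE 0.16), Psph, of serine synthesis (39.4 CPM, 0.06, SE 0.19), and Eif2ak4, which encodes the amino acid sensor GCN2 (43.4 CPM, -0.04, SE 0.08), did not pass either. Shmt2, of mitochondrial folate metabolism, was lower by 0.55 (SE 0.20, adjusted p = 0.0209). Myc was higher by 0.27 (SE 0.10, adjusted p = 0.0251) at 307 CPM, with 170 to 376 CPM in the other clones. The median of the list was -0.56 in the fourth library and -0.299 to 0.154 in the other 3.

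Of 26 glycolysis and lactate genes, 7 were higher and 11 lower. Pdk3, a kinase that inhibits pyruvate dehydrogenase, was lowest at 2.40, 2.20, 2.71 and 2.66 CPM against 6.17 to 23.1 CPM (adjusted p = 3.90e-06, edgeR), and Aldoc, an aldolase, was lowest at 59.7 CPM against 120 to 254 CPM, a call lost without the libraries numbered 2 of all clones (adjusted p = 0.212). Of 36 Nrf2 and antioxidant genes, 6 were higher and 19 lower. Gstp1, a glutathione transferase, was lowest at 15.5 CPM against 31.7 to 120 CPM, and the factor itself, Nfe2l2, was called highest at 218 CPM against 160 to 184 CPM, a call lost without clone V library 2 (adjusted p = 0.177, edgeR) or 4 (0.106). Of 36 cell cycle genes, 11 were higher, 7 lower and 18 did not pass. Cdkn2c, an inhibitor of Cdk4 and Cdk6, was lowest at 2.76 CPM against 8.70 to 25.6 CPM. Of 18 imprinted genes tested, 8 were higher and 4 lower, and Peg3, Peg10 and Grb10, given above, were the members beyond all other clones. Of the 39 Hox genes 2 were tested, and Hoxa3 had 2 counts in clone V against 0.0832 to 5.91 CPM. Of 9 X-inactivation and Y-linked genes 6 were higher and 1 lower, none beyond all clones, and Uty was at 59.5 CPM against 17.7 to 53.2 CPM.

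The last question was which of these differences were present after coculture. Of the 483 highest genes, 455 were tested in the coculture libraries and 128 (28.1%) were again highest in clone V, where 2.01% of all tested genes were. Of the 421 lowest genes, 420 were tested and 171 (40.7%) were again lowest, where 2.91% of all were. These 299 genes became 174, 180, 180 and 226 when the libraries numbered 1, 2, 3 or 4 of all clones were left out, with 63 highest genes at the lowest. The sign against each of the 6 clones was kept by 312 and 324 genes. Fibroblast transcripts were present in the sorted cells, with Postn at 41.6 CPM and Thy1 at 10.5 CPM in clone V, 43.8 to 73.3 and 5.96 to 16.2 CPM in the other clones, and their part in these counts was not tested. Peg3 measured 543, 691, 653 and 664 CPM in the clone V coculture libraries against 0.949 to 1.40 CPM. Cd81 was at 7.15 CPM against 140 to 219 CPM. Of the 14 on genes 7 were at 1 CPM or more in every clone V coculture library and 11 did not overlap with the other clones, and none of the 5 off genes overlapped. Cxcr4 was at 9.52 CPM against at most 0.105 CPM and Chrna1 at 9.53 CPM against at most 0.0446 CPM, whereas Lrrn1 was at 0.927 CPM and Rnf144a, at 0.189 CPM, lay at the level of the highest other clone (0.186 CPM). Wnt5a was at 40.3 CPM in clone V coculture against at most 16.1 CPM and was again called highest (adjusted p = 0.00147, edgeR). Lgr5 was not called, at 4.09, 4.55, 0.306 and 5.52 CPM (mean 3.62) against at most 2.19 CPM. Loxl2, at 30.5 CPM against at most 33.4 CPM, was no longer above every other clone. Of 75 named genes tested in both cultures 69 had the same sign against the mean of the others, but most were chosen for large differences in mono-culture. No share over all tested genes stands beside these counts of signs and of overlap, so they do not measure how much persisted.

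**Figure D5:**
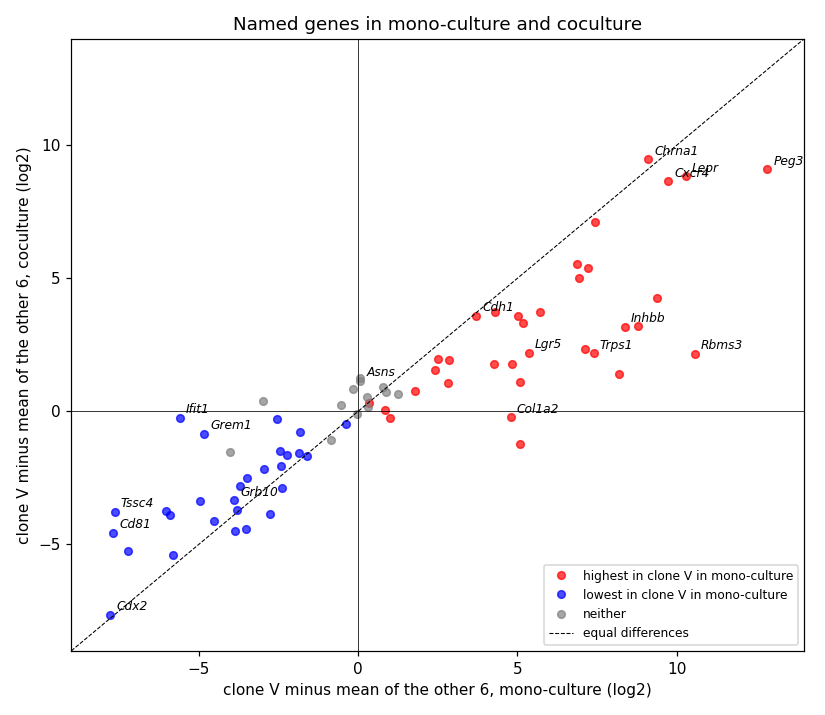
Log2 difference of clone V from the mean of the other 6 clones in mono-culture (horizontal axis) and in coculture (vertical axis) for the 75 named genes tested in both. The sign was the same for 69 genes, most of them chosen for large differences in mono-culture, with Peg3 at the upper right and Cd81 at the lower left.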

How the data were processed

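RNA was sequenced from 64 libraries of 8 mouse pancreatic tumor lines in mono-culture and in coculture. The authors deposited whole-number counts per gene for 39017 genes, without normalization, and RPKM values for 49585 genes, computed by the authors. The submitters' processing notes name mm10, featureCounts and edgeR without versions, and the aligner, the annotation and the strand setting of the counting are not given in the sources used here. Polyadenylated RNA was selected and strand-specific libraries were made, and 0 columns were left unused.

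The titles gave the clone and culture of every library. Counts were filtered with filterByExpr, normalized with TMM and fitted in edgeR (4.0.16, R 4.3.3) with a quasi-likelihood model with 1 mean per clone over the 28 mono-culture libraries, robust dispersion and Benjamini-Hochberg adjustment at 0.1, the study's threshold. The contrast was clone V minus the equally weighted mean of the other 6 clones. The highest and lowest calls used the largest of 6 one-sided pairwise p values. Levels are CPM scaled by TMM factors, compared only within a gene, and log2 CPM used a prior count of 0.5. Fold changes of genes at 0 were set against a floor of 3 counts over the 4 libraries of a clone (0.0429 to 0.0562 CPM), and this floor covers counting error only.

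Positions came from GENCODE M21 on GRCm38, which held 37693 (96.6%) of the counted gene IDs. Promoters were matched by symbol to the RefSeq table of GRCm38.p6. Named genes were up to 10 on and 10 off genes, the 12 highest and 12 lowest protein-coding genes with the largest margins at 5 CPM or more, up to 3 called members per list (for a list with none, the member with the largest difference), and 9 genes of the study. Other genes named were chosen after their values were seen, and a few items are not reported here. The clone, the gene lists (26 lists, 673 genes) and the tests were chosen with earlier results of these data known. Of the 15 leukocyte markers, 0 passed the filter on low counts.

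On simulated counts for the same 13509 genes with log2 changes of 2, the mean contrast recovered 95% of changed genes with 7.32% false calls, the highest call 100% with 0% and the lowest call 86% with 0%. Only clone V was changed in the simulation, and the other clones did not differ from one another as they do in the data. The rates of the highest and lowest calls therefore do not carry over to the data. Alternatives were RLE size factors, DESeq2 (1.42.0), no filter on low counts, and limma (3.58.1) on log2(RPKM + 1) and log2(RPKM + 0.1). Others were the lower or higher number series, clone sums, other thresholds and leaving out libraries or clones.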

Additional observations from a re-analysis of the deposited data

Results flagged for a closer look

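The 4 clone V libraries of each described value were checked for a library that stands apart, by the gap to its nearest neighbor as a share of the whole range, against Dixon's critical value for 4 values. Of 127 checks 10 exceeded it, where chance gives about 1 in 20 (6.35). For Hoxa3 the share was 1.0, because 3 libraries had 0 counts and 1 had 2 counts. For Anxa8 it was 0.924, with the third library at 69.5 CPM and the other 3 between 84.3 and 85.5 CPM. For Cxcl16 it was 0.887, with 6.04 CPM in the first library and 3.99 to 4.22 CPM in the rest. For Peg10 it was 0.886, with 40.7 CPM in the fourth library and 28.7 to 30.04 CPM in the rest. For Aldoc it was 0.883, with 85.1 CPM in the fourth library and 49.6 to 53.7 CPM in the rest. For Cdh1 it was 0.832, with 333 CPM in the second library and 294 to 300 CPM in the rest. Chromosome medians exceeded it for chromosome 4 (0.962) and chromosome 13 (0.911), and list medians for Nrf2 and antioxidant genes (0.972) and for acinar and endocrine markers (0.846, a list with 2 genes tested). In Anxa8, Cxcl16, Aldoc, Cdh1 and Peg10 all 4 libraries remained beyond the means of the other clones.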

How the results depend on the processing

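The count of genes differing from the mean of the other clones stayed between 7898 and 9981 under 23 alternatives and was 23 with clone sums. Genes highest in clone V numbered 783 in the lower number series alone, 1069 without clone H, 780 without clone K, 202 with a margin of 1, 285 to 352 without the libraries of one replicate number and 351 to 407 without single clone V libraries. Genes lowest numbered 247 with limma on log2(RPKM + 1), 1023 without H, 728 without K, 123 with a margin of 1, 296 to 344 without one replicate number and 359 to 418 without single clone V libraries. On genes numbered 5 with stricter limits (2 and 0.05 CPM), 33 with looser limits (0.5 and 0.2 CPM) and 24 without H, and 13 in the RPKM table, of which 7 were shared. They were 14 to 15 without single clone V libraries. Off genes numbered 0, 9, 15 and, in the RPKM table, 1, and 4 to 5 without single libraries. Genes that held in coculture numbered 636 when sign alone was asked, 174 to 226 without one replicate number and 235 at a threshold of 0.05, against 299. Without the 20 genes on chromosome 6, an alternative chosen after seeing the data, 475 genes were highest.

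For the difference of named genes from the mean of the other clones, 1767 of 1859 values kept direction and side of the threshold and 75 lost the threshold, 65 of these under clone sums. Their highest and lowest calls were lost more often, and only some of these losses are given beside the genes. For example, DESeq2 did not call Lgr5 (adjusted p = 0.217) or Lef1 (adjusted p = 0.219) highest. The sign of the log2 difference changed for Asns in the lower series (-0.11), with clone sums (-0.30), without clone K (-0.18) and without M (-0.28), and it ran from -0.10 to 0.31 when single libraries were left out. For Psph it was -0.092, -0.18, -0.15 and -0.19 in these settings and -0.017 with log2(RPKM + 1), and ran from -0.076 to 0.22. Without N the difference of Atf4 was 0.029, and without M that of Eif2ak4 was 0.013, both with the sign changed. The causes were not tested. Same-numbered libraries were not treated as pairs, because the 84 pairs had r between -0.135 and 0.305 (median 0.0549) and not every pair was above 0.1. As a hint of some sharing, 15 of 28 libraries, though not every one, correlated best with their own number. With the replicate number as a block 9050 genes differed, 515 were highest and 458 lowest. Clone V is 1 line with 4 libraries, and depth limits what can be said of genes under about 1 CPM.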
